A study of Mus musculus with 80 samples.

Results

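Gdf15, the gene of the secreted hormone growth differentiation factor 15, was 1 of 32764 genes counted in the RNA sequencing libraries of this series. It was found by its symbol and was followed through 4 tissues and 4 genotypes of male mice, with 5 libraries in each of the 16 groups and 80 libraries in all. The tissues were liver, skeletal muscle, the brown adipose tissue (BAT) and, as a white depot, inguinal fat (iWAT). The genotypes were wildtype (WT), a knockout of the uncoupling protein gene Ucp1 (UCP1 KO), a knockout of the hormone gene Fgf21 (FGF21 KO) and the double knockout of both genes (dKO), for which the sample labels spell the second gene FGF12. All 4 genotypes were born and raised at 30 °C, were brought to room temperature at 10 to 12 weeks of age and received a high-fat diet for 3 weeks, so that every group, WT included, shared the cooler housing and the diet. Both genes were missing in all cells of the body, so a difference in 1 tissue cannot be told apart from a response to the loss elsewhere in the mouse. The labels do not say which libraries of different tissues came from the same mouse, and p-values measure the spread between these libraries.

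GDF15 is a distant member of the TGF-beta superfamily. It is made as a precursor that proprotein convertases cut, and the mature hormone circulates and acts on the receptor GFRAL, which signals together with the co-receptor RET in the hindbrain and lowers food intake. In many tissues the gene is switched on when the integrated stress response is active, in which kinases that sense amino acid shortage, misfolded protein or mitochondrial faults slow protein synthesis and raise the transcription factor ATF4. FGF21, the hormone missing in FGF21 KO and dKO mice, is another secreted product of that response. Brown fat without UCP1 is known to carry mitochondrial stress, and p53 is a further textbook activator of Gdf15.

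The GENCODE annotation of GRCm38 placed Gdf15 at chr8:70629393-70632456 on the minus strand, with 2 annotated transcripts, Gdf15-201 of 2 exons and 1545 bases and Gdf15-202 of 3 exons and 1380 bases. Both transcripts hold the same coding sequence of 909 bases, that is 303 codons before the stop. The 250 bases in front of the outer start are shown because stress-induced genes are often read from short elements near the start, and they come from RefSeq for GRCm38.p6 at chr8:70632457-70632706, minus strand, 5′ to 3′ along the gene. None of the letters searched, on both strands, lay in this window, so it carries no capitals. A second window of 250 bases, in front of the start of Gdf15-201 at chr8:70632096-70632345, was searched as well. It overlaps the first exon of Gdf15-202 and is not printed.

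Gdf15: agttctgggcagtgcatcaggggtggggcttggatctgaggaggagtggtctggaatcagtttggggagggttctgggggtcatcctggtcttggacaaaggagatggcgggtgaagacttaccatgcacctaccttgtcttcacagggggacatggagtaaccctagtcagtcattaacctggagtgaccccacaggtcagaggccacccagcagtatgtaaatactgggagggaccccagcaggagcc

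The letters were TGATGNAA, the core of the element bound by ATF4 with a C/EBP partner, TGACG of the ATF/CRE type, the AP-1 site TGANTCA, the E-box CACGTG of helix-loop-helix factors, the CCAAT box, and the box of many core promoters, TATAAA. Among 32851 promoter windows of the same length, 3.45% held TGATGNAA, 17.8% TGACG, 6.75% TGANTCA, 6.02% CACGTG, 33.8% CCAAT and 12.4% TATAAA. The window in front of Gdf15-201 held 1 CACGTG, from base -83 counted from that start, and 1 CCAAT on the other strand, from base -6, and none of the remaining letters. Of 17 established target genes of the stress response that had a window, 6 held TGATGNAA. The stretch of 24 bases around the match farthest from the start is printed below for each gene (Slc7a11 held 2 matches, the other genes 1) with the 8 matching bases in capitals, because these genes are compared with Gdf15 further on; TTGCATCA is the same element read on the other strand. The stretches lie at chr2:119351041-119351064 (plus), chr3:50443664-50443687 (minus), chr6:7693217-7693240 (minus), chr7:45615614-45615637 (minus), chr11:120643836-120643859 (minus) and chr19:27216812-27216835 (plus), in the order shown.
Chac1: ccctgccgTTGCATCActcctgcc
Slc7a11: catgtggcTGATGCAAacctggag
Asns: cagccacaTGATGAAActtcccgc
Fgf21: cccccccaTTGCATCAtccgtcca
Pycr1: cctgtgtaTGATGCAAtgcacaag
Vldlr: agcaatagTTGCATCAgcgctcct
A match is a run of letters and no measured binding site, and the absence of TGATGNAA from both Gdf15 windows concerns these bases alone.

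The libraries held 28691377 to 50380696 counts. Marker genes fitted the tissue labels, with hepatocyte markers summing to 82767 to 135766 CPM (counts scaled to a common library size) in liver and skeletal muscle markers to 149196 to 203767 CPM in muscle. Fgf21 counts were at most 3 in every FGF21 KO and dKO library. Ucp1 was lower in BAT of both genotypes lacking it, at 919 CPM ± 290 (SD, n = 5) in UCP1 KO against 5617 CPM ± 1553 in WT. In iWAT its counts were higher in UCP1 KO, at 245 CPM ± 156, than in WT, at 4.73 CPM ± 3.54. These reads were counted over the whole gene, so they do not show whether the deleted part is gone. Muscle markers varied in BAT, from 80.6 to 8933 CPM in UCP1 KO and 139 to 4743 CPM in dKO against 86.7 to 185 CPM in WT and 91.4 to 497 CPM in FGF21 KO. Among iWAT libraries, lymph node markers ranged from 4.49 to 1153 CPM and muscle markers from 29.8 to 14978 CPM.

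In BAT, Gdf15 was near the limit of detection in mice with UCP1 and was readily detected in mice without it. The 5 WT libraries held 6, 8, 1, 2 and 2 counts, and the 5 FGF21 KO libraries 21, 15, 14, 9 and 2. The UCP1 KO libraries held 102, 293, 344, 671 and 623 counts, and the dKO libraries 993, 347, 127, 206 and 508. Every library without UCP1 therefore lay above every library with it, whether or not Fgf21 was present.

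Scaled to library size with TMM factors, the mean was 0.120 CPM ± 0.101 (SD, n = 5) in WT, 0.335 CPM ± 0.165 in FGF21 KO, 8.54 CPM ± 4.47 in UCP1 KO and 9.87 CPM ± 7.52 in dKO. The ratio of means was 71.2 for UCP1 KO over WT and 29.4 for dKO over FGF21 KO. Because the WT mean rests on 19 counts in all, the denominator of the first ratio carries a large counting error. Within each genotype the libraries also differed several-fold, from 2.67 to 13.3 CPM in UCP1 KO and from 2.90 to 22.3 CPM in dKO.

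**Figure D1:**
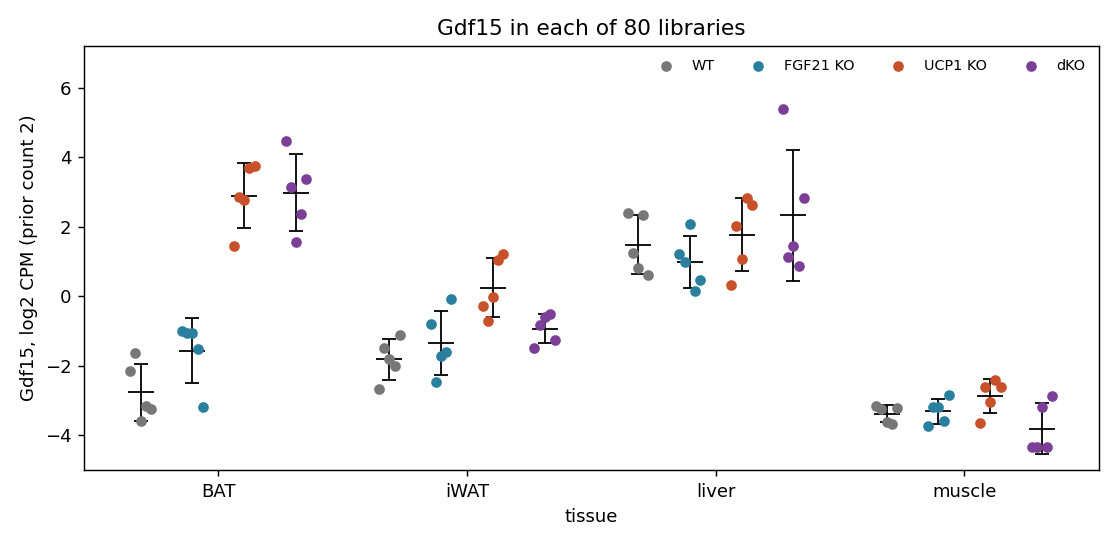
Gdf15 in each of the 80 libraries as log2 CPM with a prior count of 2 (y axis, log scale), grouped by tissue (x axis) and coloured by genotype; the black line and bars give the mean and SD of the 5 libraries. In BAT the UCP1 KO and dKO libraries lie above all WT and FGF21 KO libraries, and in liver 1 dKO library lies far above the rest.

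The question of the first comparison was what the loss of UCP1 changed while Fgf21 was intact. Gdf15 rose in BAT of UCP1 KO against WT by 6.12 on the log2 scale (SE 0.68), with an adjusted p of 3.27e-06 in edgeR's quasi-likelihood test, in a comparison that called 25.2% of the genes tested, 13.8% as higher and 11.4% as lower. The threshold for a call across genes was an adjusted p below 0.01, and exact permutation tests were read at an adjusted p below 0.05. The same step on the background without Fgf21, dKO against FGF21 KO, raised Gdf15 by 4.85 (SE 0.60, adjusted p = 1.79e-05 in edgeR), where 13.5% of genes were called, 6.74% as higher and 6.8% as lower. An exact permutation test on log2 CPM gave p = 0.00794 for each of these, the smallest value that 5 against 5 libraries allow, and 0.0381 after Benjamini-Hochberg adjustment over 24 comparisons between genotypes.

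Fgf21 made no difference to Gdf15 in BAT that passed a test. UCP1 KO and dKO overlapped, with a log2 difference of -0.22 (SE 0.47, adjusted p = 0.879 in edgeR; 0.0636% of genes called). FGF21 KO was higher than WT by 1.49 (SE 0.79, adjusted p = 0.632; 0.0% of genes called by edgeR, 1345 at an unadjusted p below 0.05), and the libraries overlapped (exact permutation p = 0.0635, adjusted 0.139). The effects of UCP1 loss with and without Fgf21 differed by 1.27 (SE 0.92, adjusted p = 0.933 in edgeR; 0.0% of genes called, 845 at an unadjusted p below 0.05). Averaged over both Fgf21 backgrounds, the loss of UCP1 raised Gdf15 by 5.48 (SE 0.45, adjusted p = 3.08e-08 in edgeR), in a contrast that called 38.4% of genes.

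Some muscle and macrophage markers were called higher in BAT of UCP1 KO against WT, but only 0 and 1 in dKO against FGF21 KO. Of 10 skeletal muscle markers, 5 were called higher in UCP1 KO against WT and 0 in dKO against FGF21 KO by edgeR (10 at an unadjusted p below 0.05), with median log2 differences of 4.74 and 4.05. Of 10 macrophage markers, 7 were called higher in UCP1 KO against WT and 1 in dKO against FGF21 KO by edgeR (8 and 3 at an unadjusted p below 0.05), with medians of 1.10 and 0.39. Of 8 lymph node markers, 0 and 1 were called higher by edgeR (3 and 6 at an unadjusted p below 0.05; medians 0.51 and 1.24), at summed levels of 2.53 to 15.6 CPM over the BAT libraries. Of 5 hepatocyte markers, 0 were called by edgeR in either comparison (1 and 4 at an unadjusted p below 0.05; medians 0.70 and 1.16). Of the adipocyte (5), brown adipocyte (6) and endothelial (4) markers, 1 of each list was called lower in both comparisons. Over all genes 13.8% were called higher and 11.4% lower in the first comparison, and 6.74% and 6.8% in the second. A count of 1 on lists this short is therefore near the background. The brown adipocyte medians were -0.42 and -0.37, and the score ran from 5.66 to 6.44 in UCP1 KO against 6.49 to 6.74 in WT. The adipocyte score was 8.52, 9.56, 9.30, 8.68 and 7.58 in UCP1 KO replicates 1 to 5, against 8.94 to 9.43 in WT. Replicates 4 and 5 had the highest Gdf15 of their group and replicate 1 the lowest. Of 4 neutrophil markers 2 were tested, and 0 were called by edgeR in either comparison (2 and 0 at an unadjusted p below 0.05). The part of the lymph node, hepatocyte, adipocyte, brown adipocyte, endothelial and neutrophil lists in the Gdf15 result was not tested, while the muscle and macrophage scores were used as covariates. Gdf15 itself was at 0 to 5 counts in every muscle library, and with the muscle score as a covariate the BAT differences were 6.23 (adjusted p = 7.50e-06) and 5.01 (adjusted p = 7.33e-05) in edgeR. In the BAT libraries with a muscle score of at most 5.2 (the mean of log2 CPM over the markers; all WT and FGF21 KO libraries, 3 of UCP1 KO and 2 of dKO), a limit set after the data were seen, they were 6.28 (adjusted p = 4.81e-06) and 4.79 (adjusted p = 4.51e-05). With the macrophage score as a covariate they were 5.85 (adjusted p = 0.000128) and 4.75 (adjusted p = 5.07e-05). In bulk tissue a change in the number of cells of a type and a change in RNA per cell cannot be told apart.

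In iWAT, Gdf15 was low in all groups and highest in UCP1 KO. The WT libraries held 6, 17, 14, 15 and 27 counts, the FGF21 KO libraries 38, 7, 18, 22 and 73, the UCP1 KO libraries 39, 34, 40, 92 and 96, and the dKO libraries 24, 34, 42, 41 and 21. The means were 0.253 CPM ± 0.114 (SD, n = 5), 0.416 CPM ± 0.304, 1.31 CPM ± 0.775 and 0.491 CPM ± 0.147 in the same order. All UCP1 KO libraries, at 0.561 to 2.26 CPM, lay above all WT libraries, at 0.107 to 0.410 CPM, while the other genotypes overlapped with each other. Brown adipocyte markers were also highest in UCP1 KO iWAT. Their score, the mean log2 CPM of 6 markers, ran from 3.26 to 4.69 in UCP1 KO, 2.23 to 2.87 in WT, 0.898 to 2.76 in FGF21 KO and 1.68 to 3.12 in dKO. Of 5 tested in UCP1 KO against WT, 2 were called higher and 1 lower, with a median log2 difference of 2.59, and their part in the Gdf15 result was not tested. Over all genes 0.61% were called there, 0.593% as higher.

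UCP1 KO against WT gave a log2 difference of 2.32 in iWAT (SE 0.51, adjusted p = 0.0197 in edgeR), which missed the threshold in a comparison that called 0.61% of genes, 0.593% as higher. The exact permutation test gave p = 0.00794, adjusted 0.0381. Leaving out 1 library at a time gave 2.04 to 2.57, and the difference was called without UCP1 KO replicate 2 (adjusted p = 0.00688 in edgeR), as it was with DESeq2 (adjusted p = 0.000298) and in a fit of all 80 libraries (adjusted p = 0.0055). It was called as well once the lymph node score was added as a covariate (2.37, adjusted p = 0.00772). It was farther from the threshold with only the 2 genotypes in the fit (2.32, adjusted p = 0.0535 in edgeR) and without UCP1 KO replicate 5 (2.04, adjusted p = 0.0759). With the muscle score as a covariate it was 2.38 (adjusted p = 0.0183).

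Without Fgf21 the step did not pass the test in iWAT. The difference of dKO against FGF21 KO was 0.22 (SE 0.48, adjusted p = 0.781 in edgeR; 0.0115% of genes called). In the libraries with a lymph node score of at most 4 it was 1.96 (SE 0.84, adjusted p = 1.0), but the FGF21 KO group then held replicate 2 alone, the other 4 scoring 6.35 to 6.80. UCP1 KO exceeded dKO by 1.38 (SE 0.49, adjusted p = 0.161; 0.466% called), with overlapping libraries (exact permutation p = 0.0238, adjusted 0.0952). UCP1 KO exceeded FGF21 KO by 1.60 (SE 0.49, adjusted p = 0.0426; 3.76% called), and by 3.45 (SE 0.87, adjusted p = 0.138 in edgeR) at that low lymph node score, against the same single FGF21 KO library. The interaction, which asks directly whether the effect of UCP1 loss differed with and without Fgf21, was 2.10 (SE 0.69, unadjusted p = 0.00708, adjusted p = 0.342 in edgeR; 0.0% of genes called, 1734 at an unadjusted p below 0.05) and was not called. Restricted to that lower score it was 0.75 (SE 0.97, adjusted p = 0.759 in edgeR), again with 1 FGF21 KO library.

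In liver, Gdf15 was expressed in every genotype and neither step of UCP1 loss passed the test. The WT libraries lay at 5.26, 2.32, 1.70, 5.05 and 1.49 CPM, the FGF21 KO libraries at 2.28, 1.94, 4.2, 1.06 and 1.35 CPM, and the UCP1 KO libraries at 1.21, 4.02, 2.06, 7.01 and 6.14 CPM. The dKO libraries lay at 42.1, 2.13, 2.66, 1.77 and 6.99 CPM, so that 1 library carried most of that group's counts (1118 of its counts, against 37 to 190 in the others). The log2 difference was 0.37 (SE 0.75, adjusted p = 0.903 in edgeR) for UCP1 KO against WT, where 0.0694% of genes were called, and 2.35 (SE 0.76, adjusted p = 0.553) for dKO against FGF21 KO, where 0.00694% were called. Without the first dKO library the second value was 0.65. Muscle markers gave a median of -1.65 in liver of UCP1 KO against WT (0 of 10 called by edgeR, 10 at an unadjusted p below 0.05), and with their score as a covariate the first value was -0.91 (SE 1.38, adjusted p = 0.939).

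In muscle, Gdf15 was at the edge of detection, with 1 to 2 counts per library in WT, 1 to 3 in FGF21 KO, 1 to 5 in UCP1 KO and 0 to 3 in dKO. It did not pass the filter on low counts within that tissue, and in the fit of all 80 libraries the difference was 0.92 (SE 1.07, adjusted p = 1.00 in edgeR) for UCP1 KO against WT and -0.78 (SE 1.30) for dKO against FGF21 KO.

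The order of tissues changed with the UCP1 genotype. In WT, Gdf15 fell from liver to iWAT to BAT to muscle: liver exceeded iWAT by 3.30 in mean log2 CPM (exact permutation p = 0.00794, adjusted 0.0190 over 12 neighbouring pairs), whereas iWAT and BAT (0.94, p = 0.0794) and BAT and muscle (0.62, p = 0.167) did not differ beyond their spread in the same exact test. FGF21 KO had the same order, with liver above iWAT by 2.32 (exact permutation p = 0.00794, adjusted 0.0190), no difference of iWAT and BAT beyond their spread (0.22, p = 0.69) and BAT above muscle by 1.74 (p = 0.0238, adjusted 0.0476). The first of these calls ended with raw library totals (1.17, adjusted p = 0.127 in the exact permutation test) and the last with RLE factors (1.70, adjusted p = 0.0635 in the same exact test). Raw library totals also made iWAT exceed BAT in WT, by 1.54 (adjusted p = 0.0476 in that test).

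By mean log2 CPM the order in UCP1 KO and dKO ran from BAT to liver to iWAT to muscle. By mean CPM liver came first in dKO, at 11.1 against 9.87 CPM in BAT, with the library at 42.1 CPM among its 5. BAT and liver did not differ beyond their spread in UCP1 KO (1.12, exact permutation p = 0.111) or dKO (0.66, p = 0.524). Liver exceeded iWAT by 3.26 in dKO (exact permutation p = 0.00794, adjusted 0.0190) and by 1.52 in UCP1 KO (p = 0.0397, adjusted 0.0680). iWAT exceeded muscle in both genotypes, by 3.12 and 2.88 (exact permutation p = 0.00794, adjusted 0.0190 each).

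The effect of UCP1 loss in BAT was set against that in the other tissues by a test of the difference itself, an interaction of tissue and genotype in the edgeR fit of all 80 libraries. For UCP1 KO against WT, the log2 difference in BAT exceeded that in iWAT by 3.78 (SE 0.95, adjusted p = 0.00264; 10.5% of genes called) and that in liver by 5.77 (SE 0.92, adjusted p = 6.64e-06; 5.38% called). For dKO against FGF21 KO it exceeded that in iWAT by 4.64 (SE 0.87, adjusted p = 0.000175; 7.0% called). The excess over liver was 2.49 (SE 0.83, adjusted p = 0.0672; 1.93% called) and moved with the high liver library, without which a fit of BAT and liver alone gave 4.21 and a call (adjusted p = 0.00152 in edgeR). The excess over muscle, where counts were lowest, was 5.21 (SE 1.54, adjusted p = 0.0201; 4.31% called) and 5.63 (SE 1.55, adjusted p = 0.0190; 2.06% called), neither of them past the threshold.

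**Figure D2:**
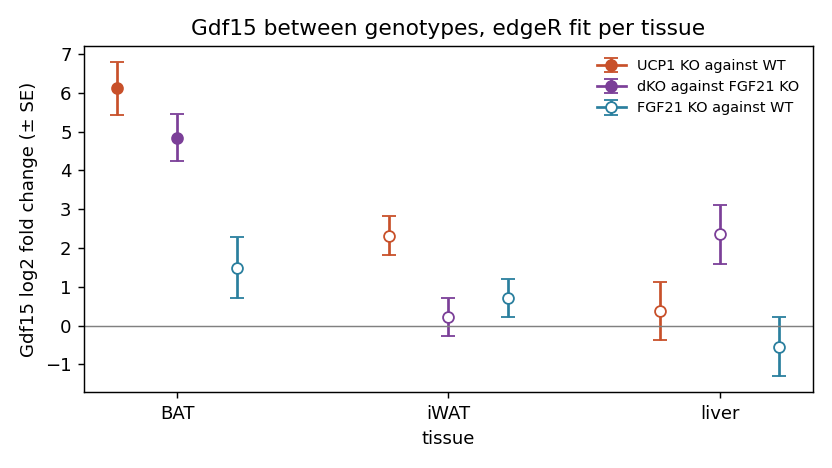
Log2 fold change of Gdf15 with its SE (y axis) for 3 comparisons of genotypes in BAT, iWAT and liver (x axis), from the edgeR fit of each tissue; filled points have an adjusted p below 0.01. The 2 filled points are the steps of UCP1 loss in BAT, at 6.12 and 4.85.

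The genes of the receptor and of the processing of GDF15 were examined next. Gfral, the receptor, had 0 counts in all 80 libraries, which allows at most 0.000983 CPM over all of them (3 counts; counting error only). Ret, the co-receptor, was at 2.34 CPM ± 0.355 (SD, n = 5) in WT BAT and 2.22 CPM ± 0.754 in UCP1 KO BAT (log2 difference -0.09, adjusted p = 0.779 in edgeR). Of the 6 genes of this list that were tested in BAT, 0 were called higher and 1 was called lower in UCP1 KO against WT, with a median of -0.15 against 0.01 over all genes. Over all genes 13.8% were called higher and 11.4% lower, so these counts are near the background. That gene was Furin, the best known convertase, which fell by 0.47 (SE 0.12, adjusted p = 0.00419), from 79.2 to 91.8 CPM in WT libraries to 52.6 to 73.8 CPM in UCP1 KO libraries. In dKO against FGF21 KO its value was -0.30 (adjusted p = 0.0623 in edgeR), and 0 of the 6 were called while 2 had an unadjusted p below 0.05. The call on Furin was lost with the muscle or the macrophage score as a covariate and without any 1 of WT replicates 1 to 3 or UCP1 KO replicates 1, 4 and 5, where the list count was 0. Pcsk5, Pcsk6 and Pcsk7, related convertases, gave -0.56, -0.08 and -0.22 in UCP1 KO against WT, and Mmp14, a membrane protease that can cut GFRAL, gave 0.19, none of them called.

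Some regulators of the integrated stress response rose in BAT without UCP1. Of 14 tested regulators, 5 rose and 0 fell in UCP1 KO against WT, with a median log2 difference of 0.37 against 0.01 over all genes, and 5 rose and 0 fell in dKO against FGF21 KO (median 0.18 against 0.00), where 13.8% and 6.74% of all genes were called higher. The count of 5 in the second comparison was 3 without dKO replicate 1 or without FGF21 KO replicate 1, 2, 4 or 5, and in the BAT libraries with a muscle score of at most 5.2. With the macrophage score as a covariate it was 3 in both, and without UCP1 KO replicate 1 the first comparison had 7 that rose and 2 that fell. The same 5 genes rose in both comparisons: Atf4, the central factor, Ddit3 (CHOP), Atf3 and Atf5, which act with or downstream of it, and Ppp1r15a (GADD34), a phosphatase subunit that ends the response. The kinases that start the response, Eif2ak1 to Eif2ak4, and the mitochondrial protease Oma1 were not called, with values between -0.18 and 0.48 in UCP1 KO against WT.

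Atf4 lay at 62.9, 88.7, 105, 81.9 and 91.1 CPM in WT, 102, 126, 104, 99.5 and 100 CPM in FGF21 KO, 174, 180, 178, 238 and 250 CPM in UCP1 KO and 194, 180, 183, 185 and 200 CPM in dKO. No library without UCP1 overlapped one with it. The log2 difference was 1.24 (SE 0.12, adjusted p = 1.18e-06 in edgeR) in UCP1 KO against WT and 0.83 (SE 0.12, adjusted p = 0.000103) in dKO against FGF21 KO. Ddit3 rose more and varied more, from 17.5 CPM ± 1.17 (SD, n = 5) in WT to 112 CPM ± 86.8 in UCP1 KO (2.67, SE 0.38) and from 21.1 CPM ± 5.35 in FGF21 KO to 60.5 CPM ± 9.27 in dKO (1.52, SE 0.37). Atf3 rose by 3.91 and 2.35, Atf5 by 1.36 and 1.51 and Ppp1r15a by 1.91 and 1.51 in the same 2 comparisons. In dKO against FGF21 KO, Ddit3 and Atf3 each lost the call in 8 of 30 alternatives, both of them with the macrophage score as a covariate, in the BAT libraries with a muscle score of at most 5.2, without dKO replicate 1 and without FGF21 KO replicate 1, 2, 4 or 5, Ddit3 also without dKO replicate 5 and Atf3 without FGF21 KO replicate 3. In UCP1 KO against WT, Atf3 and Ppp1r15a lost it with the macrophage score.

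Target genes of the response rose with Gdf15 in BAT. Of 19 tested targets, 15 rose and 0 fell in UCP1 KO against WT (median 2.53 against 0.01 over all genes), and 13 rose and 0 fell in dKO against FGF21 KO (median 1.19 against 0.00), beside 13.8% and 6.74% of all genes called higher. Fgf21 is among the 19 and, being deleted in both groups of the second comparison, could not rise there. Trib3, a pseudokinase that dampens ATF4, rose from 4.55 to 6.87 CPM in WT to 53.5 to 290 CPM in UCP1 KO (4.79, SE 0.39, adjusted p = 1.48e-07 in edgeR), and from 5.29 to 8.63 CPM in FGF21 KO to 63.2 to 98.7 CPM in dKO (3.54, SE 0.37, adjusted p = 3.25e-06). Mthfd2, an enzyme of mitochondrial folate metabolism, rose by 4.75 (SE 0.25, adjusted p = 9.47e-10) and 4.68 (SE 0.25, adjusted p = 1.07e-09).

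Several of the targets that rose handle amino acids. Slc7a11, the cystine transporter, rose by 5.21 (SE 0.63) and 5.74 (SE 0.63), and Slc7a5, a transporter of large neutral amino acids, by 5.0 (SE 0.36) and 4.22 (SE 0.34) in UCP1 KO against WT and dKO against FGF21 KO. Aldh18a1 of proline synthesis rose by 2.74 and 2.30. Asns, asparagine synthetase, rose by 1.05 (SE 0.08) and 1.15 (SE 0.08), from 51.7 CPM ± 3.11 (SD, n = 5) to 108 CPM ± 13.4 in the first comparison, and lost both calls in the fit of all 80 libraries. Chac1, which degrades glutathione, rose by 3.40 and 2.97. The 4 targets not called in UCP1 KO against WT were Ddit4 (-0.02), Sesn2 (0.59), Stc2 (1.05) and Vldlr (-0.06). Of the 6 genes whose stretches with TGATGNAA are printed above, 5 rose in that comparison and Vldlr did not pass the test, a share near the 15 of 19 of the whole list.

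Fgf21 rose from 0.222 to 0.280 CPM in WT BAT to 9.23, 23.6, 34.3, 28.3 and 23.4 CPM in UCP1 KO BAT (6.58, SE 0.36, adjusted p = 1.15e-09 in edgeR). Of the genes on the pathway lists, Fgf21 was the 1 that differed between UCP1 KO and dKO in BAT (9.58, adjusted p = 1.27e-10), being deleted in the latter.

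**Figure D3:**
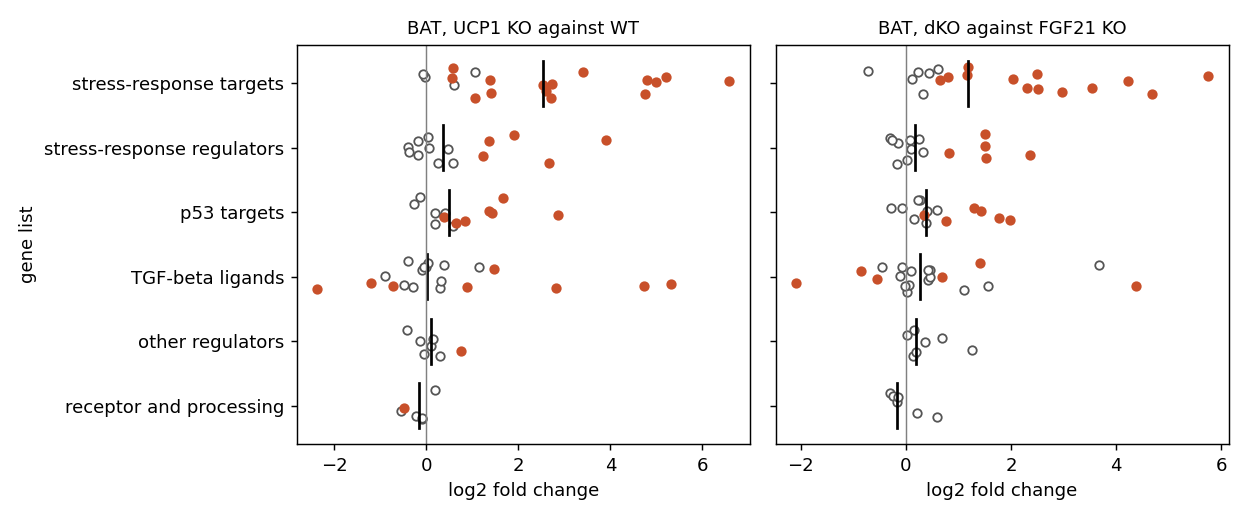
Log2 fold changes in BAT (x axis) of the genes tested on each list (y axis), for UCP1 KO against WT (left) and dKO against FGF21 KO (right); filled points have an adjusted p below 0.01 and black bars mark each list's median. The medians of the stress-response targets are 2.53 and 1.19, and the receptor and processing genes lie near 0.

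Genes activated by p53, the other textbook route to Gdf15, rose in part. Of 14 tested, 7 rose and 0 fell in BAT in UCP1 KO against WT (median 0.49), and 6 rose and 0 fell in dKO against FGF21 KO (median 0.39), beside 0.01 and 0.00 over all genes and 13.8% and 6.74% of them called higher. With the macrophage score as a covariate the first count was 3, and in the BAT libraries with a muscle score of at most 5.2 the second was 3. Pmaip1 (NOXA), which promotes cell death and is also a target of ATF4, rose by 2.86 (SE 0.38, adjusted p = 1.75e-05 in edgeR) and 1.98 (SE 0.37, adjusted p = 0.000758), the second call being lost in the fit of 80 libraries. Gtse1 rose by 1.66 and 1.43, Trp53inp1 by 1.43 and 1.30 and Eda2r by 1.36 and 1.77. In UCP1 KO against WT, Eda2r lost its call in 18 of 30 alternatives, both score covariates and 14 leave-one-out fits among them, and Trp53inp1 in 2. In dKO against FGF21 KO, Gtse1 lost it in 8, among them without dKO replicate 1 or 2 or FGF21 KO replicates 2 to 5, and Trp53inp1 in 7, among them without dKO replicate 4 or FGF21 KO replicate 1, 2, 4 or 5. Cdkn1a (p21), the classical p53 target, gave 0.40 (adjusted p = 0.164) and 0.59 (adjusted p = 0.0573), with overlapping libraries. Trp53 itself rose by 0.64 (adjusted p = 0.00115) in UCP1 KO against WT, a call lost with the macrophage score or with only those 2 genotypes in the fit, and gave 0.40 (adjusted p = 0.0343) in the other comparison.

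Among 7 further factors reported to act on Gdf15, 1 rose in UCP1 KO against WT in BAT, Hif1a of the response to low oxygen (0.75, SE 0.10, adjusted p = 2.67e-05 in edgeR), and 0 were called by edgeR in dKO against FGF21 KO, where 2 had an unadjusted p below 0.05 and Hif1a gave 0.35 (adjusted p = 0.0162). With 13.8% and 6.74% of all genes called higher, these counts are near the background. In the latter comparison 1 was called without UCP1 KO replicate 2, dKO replicate 3 or FGF21 KO replicate 2, and 1 by DESeq2. The list included Tfeb and Tfe3 of the lysosomal response and Nfe2l2 of the antioxidant response, none of them called in either comparison.

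Relatives of GDF15 in the TGF-beta superfamily moved in both directions. Of 20 ligand genes tested in BAT, 5 rose and 3 fell in UCP1 KO against WT (median 0.01), and 3 rose and 3 fell in dKO against FGF21 KO (median 0.26). Over all genes 13.8% were called higher and 11.4% lower in the first comparison and 6.74% and 6.8% in the second. The 5 that rose became 3 without WT replicate 1, 4 or 5 or UCP1 KO replicate 2 and 2 with the macrophage score as a covariate. Bmp8b, a ligand known from thermogenic fat, rose from 0.804 CPM ± 0.503 (SD, n = 5) to 21.7 CPM ± 9.03 in UCP1 KO (4.73, SE 0.45, adjusted p = 6.57e-07 in edgeR) and by 4.37 in dKO against FGF21 KO. Gdf9 rose by 1.48 and 1.41, but lost its call in 5 of 30 alternatives in the first comparison (without WT replicate 2 or UCP1 KO replicate 4 or 5 among them) and in 19 in the second, both score covariates and 14 leave-one-out fits among them. Gdf5 fell by 2.37 and 2.09, and Bmp5 fell by 1.20 and 0.86. Gdf5 lost the first call with the macrophage score and the second in the libraries with a muscle score of at most 5.2, and Bmp5 the second in the fit of 80 libraries. Gdf3 rose by 2.83 in the first comparison and gave 1.11 (adjusted p = 0.172) in the second, the first call being lost in 8 alternatives, without WT replicate 1, 4 or 5 or UCP1 KO replicate 2 or 3 among them. Mstn, the muscle hormone myostatin, was called in UCP1 KO against WT (5.32, adjusted p = 0.00417 in edgeR), with libraries at 0.0262 to 2.00 CPM overlapping WT at 0 to 0.0677 CPM, beside the muscle markers that varied among the same BAT libraries. The call was lost in 9 alternatives, among them the muscle score as a covariate and leaving out WT replicate 1, 3, 4 or 5 or UCP1 KO replicate 2.

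Within the 10 BAT libraries without UCP1, Gdf15 varied together with some stress-response genes, but no relation passed adjustment. After each genotype's mean was subtracted, Pearson's r of log2 CPM was 0.63 with Atf4 (permutation p = 0.0202), 0.61 with Ddit3 (p = 0.0274), 0.64 with Trib3 (p = 0.0213) and 0.77 with Chac1 (p = 0.0211), each with an adjusted p of 0.0617 over 9 relations. Spearman's rho was 0.75, 0.67, 0.65 and 0.70 in the same order, with permutation p-values of 0.0163, 0.0531, 0.0602 and 0.0424 and an adjusted p of 0.108 each. Without the 2 libraries farthest from the median of the other gene, r was 0.61 with Atf4, 0.31 with Ddit3, 0.38 with Trib3 and 0.19 with Chac1, so the last 3 rested on those libraries. In the same way r was 0.63 with Atf3, 0.41 with Asns, -0.46 with Cdkn1a, -0.08 with the muscle score and 0.56 with the macrophage score.

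Atf3 gave r = 0.57 (permutation p = 0.0900, adjusted 0.162), Asns 0.32 (p = 0.359) and Cdkn1a -0.39 (p = 0.281). The skeletal muscle score gave r = -0.09 (permutation p = 0.807, rho = -0.27) and the macrophage score 0.35 (p = 0.328, rho = 0.37). In UCP1 KO the libraries with the highest Gdf15, replicates 4 and 5, were also those with the highest Ddit3 (160 and 241 CPM) and Trib3 (253 and 290 CPM). In dKO the highest Gdf15, in replicate 1, went with a Ddit3 of 60.0 CPM and a Trib3 of 81.3 CPM, inside the range of the other dKO libraries.

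**Figure D4:**
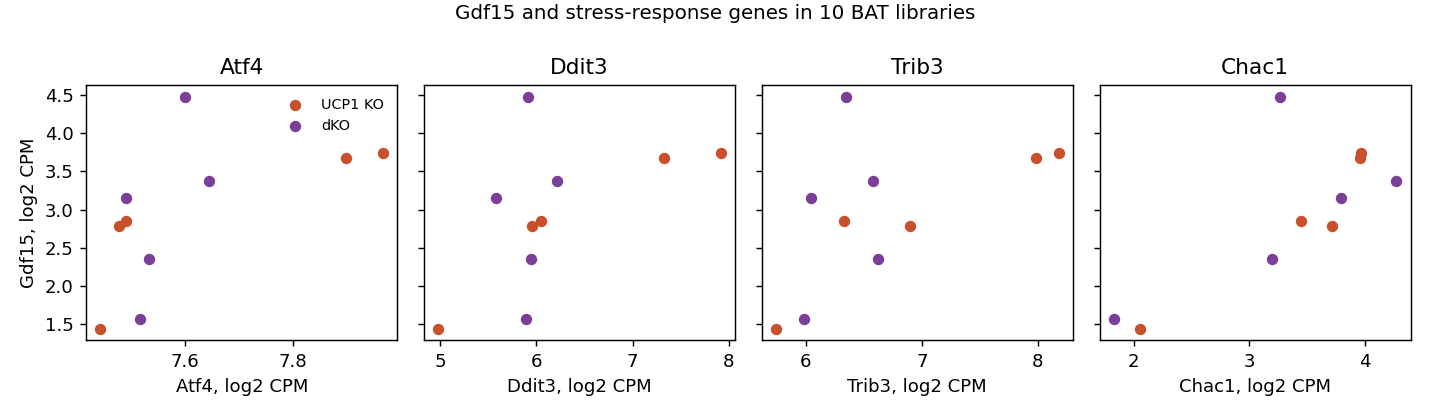
Gdf15 (y axis, log2 CPM) against Atf4, Ddit3, Trib3 and Chac1 (x axes, log2 CPM) in the 5 UCP1 KO and 5 dKO libraries of BAT; each point is a library, and no mean has been subtracted. The UCP1 KO points rise with each gene, and the dKO points for Ddit3 and Trib3 span a narrow range of the x axis.

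In iWAT few members of the stress-response lists passed the test. In UCP1 KO against WT, 1 of 19 targets rose, Fgf21 (5.40, SE 0.90, adjusted p = 0.00688 in edgeR), and 0 of 14 regulators were called, with medians of 0.17 and 0.39 against -0.03 over all genes and 7 regulators below an unadjusted p of 0.05. Over all genes 0.593% were called higher, and 2551 of 17380 had an unadjusted p below 0.05. Of the 14 regulators, 13 had a positive difference there, as had 7901 of all genes, and their median was close to the 0.37 in BAT. Atf4 gave 0.37 (adjusted p = 0.0439), with UCP1 KO libraries at 75.5 to 116 CPM above WT libraries at 68.0 to 72.4 CPM. Trib3 gave 1.97 (adjusted p = 0.0641), from 2.12 to 7.12 CPM in WT to 3.13 to 42.2 CPM in UCP1 KO, and Ddit3 gave 1.10 (adjusted p = 0.0507). The 2 UCP1 KO libraries with the highest Gdf15, replicates 4 and 5 at 2.03 and 2.26 CPM, also held the highest Trib3, at 25.4 and 42.2 CPM. Their brown adipocyte scores, 4.39 and 4.69, were the highest of the group as well. Bmp8b was the TGF-beta ligand called there (7.41, SE 1.32, adjusted p = 0.00588). The counts of 1 depended on single libraries. Fgf21 lost its call without any 1 of the WT libraries, UCP1 KO replicates 3 to 5 or FGF21 KO replicates 1 and 3 to 5, with the macrophage score as a covariate and at a lymph node score of at most 4, and Bmp8b without any 1 of the WT libraries, UCP1 KO replicates 3 to 5 or FGF21 KO replicate 3, and both with only the 2 genotypes in the fit. DESeq2 called 3 regulators and 2 targets. In dKO against FGF21 KO, 0 genes of any of the 6 lists were called by edgeR in iWAT, where 0.0115% of all genes were. At an unadjusted p below 0.05 were 1 regulator and 1 target of the stress response, 2 p53 targets and 2 TGF-beta ligands. The receptor and processing genes and the other regulators had 1 each, beside 1499 of 17380 genes in all.

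In liver, 0 genes of the 6 lists were called by edgeR in UCP1 KO against WT or in dKO against FGF21 KO, with 4 of 16 targets and 2 of 14 regulators of the stress response below an unadjusted p of 0.05 in the first comparison and 1 and 2 in the second. Below it also lay 1 p53 target, 3 other regulators and 3 TGF-beta ligands in the first comparison. The second had 1, 2 and 5 of these and 1 receptor or processing gene. Of 14407 genes tested in liver, 1470 and 973 lay below that p. In the dKO library with 42.1 CPM of Gdf15, Trib3 was also highest of its group, at 30.3 CPM against 4.55 to 7.21 CPM, while Atf4 (105 CPM), Ddit3 (12.9 CPM) and Chac1 (6.55 CPM) lay inside the range of the other dKO libraries and Asns, at 1.88 CPM, lay below it.

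Gdf15 and Ucp1 lie on the same chromosome, 12.7 Mb apart, so the genes around Gdf15 were examined as well. Of 59 genes annotated within 0.5 Mb of Gdf15, 39 were tested in BAT; 1 was called higher and 4 lower in UCP1 KO against WT, and 0 higher and 2 lower in dKO against FGF21 KO, beside the 25.2% and 13.5% called over all genes. Their median log2 differences were -0.00 and 0.07. Lrrc25, the nearest gene at 7910 bases, is expressed in myeloid cells and rose by 1.72 (SE 0.28, adjusted p = 0.000125 in edgeR) in UCP1 KO against WT, where macrophage markers also rose and with whose score as a covariate the call was lost, and gave 0.61 (adjusted p = 0.0999) in dKO against FGF21 KO. Pgpep1, 13979 bases away on the other side, gave -0.02 (adjusted p = 0.871). Among the genes that fell in UCP1 KO against WT, Ell did so by 0.50, Borcs8 by 0.44 and Kxd1 by 0.38, the last 2 losing the call with the macrophage score. In iWAT, 1 of 43 tested neighbours was called higher in UCP1 KO against WT, Slc25a42, named after its value was seen, and 0 were called by edgeR in dKO against FGF21 KO, with 5 at an unadjusted p below 0.05. Over all genes in iWAT 0.593% were called higher in the first comparison and 0.0115% in either direction in the second. In liver, 0 of the genes tested around Gdf15 were called by edgeR in either comparison, with 2 and 0 at an unadjusted p below 0.05, beside 0.0694% and 0.00694% of all genes called.

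Over the 16 group means of log2 CPM, the genes whose levels ran most like those of Gdf15 were Taf15 (r = 0.93), Acot8, Tsku and Iqch (0.92 each), Mid1ip1, Lrrc59, Eif1a and Htatip2 (0.91 each). These points share 4 tissues and TMM scaling, and the values are a description. Tsku, a liver-enriched secreted protein, rose in BAT by 2.83 (SE 0.32) in UCP1 KO against WT and 2.24 (SE 0.31) in dKO against FGF21 KO. Acot8, a peroxisomal thioesterase, rose by 0.89 and 0.87, and Htatip2 by 1.27 and 1.12. On the stress-response and p53 lists the closest were Trib3 (r = 0.88, rank 23), Atf5 (0.87, rank 41) and Trp53inp1 (rank 46). The other members of these lists reached from 0.79 for Bbc3 down to -0.71 for Ccng1. Atf4 gave -0.07 (rank 8354), Atf3 0.03, Ddit3 0.33, Chac1 -0.36 and Cdkn1a -0.09. Of the first 8 genes, 4 stayed among the first 8 by Spearman's rho and 0 did so over the 8 fat groups alone.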

How the data were processed

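Total RNA of 80 tissue samples from male mice was sequenced, and the authors mapped the reads of strand-specific libraries with STAR to mm10 and counted them per gene with HTSeq. Each deposited file holds whole-number read counts per gene for 1 sample, not normalized. The strand setting of the counting is not given in the sources used here. Total counts ran from 28691377 to 50380696 per library, which sets the counting error, and 1 row without a gene name (at most 3.42e-05% of counts) was left out.

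Groups came from the tissue and genotype labels, and replicate numbers only name libraries in accession order. Within each tissue, genes were kept with a maximum above 15, a sum above 75 and at most 10 libraries at 0 (15729 genes in BAT, 17380 in iWAT, 14407 in liver, 15114 in muscle), and edgeR 4.0.16 (R 4.3.3) was fitted with TMM factors and the quasi-likelihood test, with Benjamini-Hochberg adjustment over all genes and a threshold of 0.01. Tissues were compared in 1 fit of all 80 libraries (18297 genes). The SE beside an edgeR difference is its absolute value divided by the square root of the quasi-likelihood F statistic, not a separate estimate. Log2 CPM used a prior count of 2. Differences in log2 CPM were also tested by two-sided exact permutation. DESeq2 1.42.0, RLE factors, other filters, marker scores as covariates and leaving out each library were alternatives.

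Gdf15, the gene lists and the markers were chosen with earlier results of these data known. Named genes were Gdf15, the receptor and processing genes, Atf4, Ddit3, Atf3, Atf5, Trib3, Chac1, Asns, Fgf21, Cdkn1a and Trp53, up to 4 further called genes per list and 6 TGF-beta ligands by the size of their BAT difference in UCP1 KO against WT, the 8 genes most like Gdf15, the targeted genes, and tested neighbours of Gdf15. Other list members were named after their values were seen. Dele1 was not matched to any gene counted. Promoter sequences came from RefSeq and gene coordinates from GENCODE.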

Additional observations from a re-analysis of the deposited data

Results flagged for a closer look

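Of the 16 groups of 5 libraries, 1 held a Gdf15 value that stood apart on the CPM scale. The check for such values was not run on log2 CPM. In liver of dKO mice, 1 library lay at 42.1 CPM and the next at 6.99 CPM, a gap that took a share of 0.871 of the group's range, against a critical value of 0.71 in Dixon's test; chance alone marks about 1 group in 20. Trib3 in that library was 30.3 CPM, against 4.55 to 7.21 CPM in the other 4 dKO livers. Atf4, Ddit3 and Chac1 in the same library lay inside the range of those 4, and Asns lay below it.

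The effect of UCP1 loss on Gdf15 differed between tissues by a test of the difference. UCP1 KO against WT was larger in BAT than in iWAT by 3.78 on the log2 scale (adjusted p = 0.00264 in edgeR) and larger than in liver by 5.77 (adjusted p = 6.64e-06). dKO against FGF21 KO was larger in BAT than in iWAT by 4.64 (adjusted p = 0.000175). Each kept its direction and its call in all 40 fits of the 2 tissues that left out 1 library.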

How the results depend on the processing

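No paired analysis was possible because the labels carry neither replicate numbers nor a link between libraries of 1 mouse. In BAT, Gdf15 kept its rise and its call under every alternative run, from 5.85 to 6.61 in UCP1 KO against WT and from 4.31 to 5.08 in dKO against FGF21 KO. Leaving out a library within the fit of 80 was not run, and was run, as chosen after the data were seen, with only BAT and iWAT or only BAT and liver. Counts at or near 0 in muscle and in WT BAT limit what depth can show. The causes of the changes below were not tested.

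For iWAT, UCP1 KO against WT was called at a threshold of 0.05 (2.32), by DESeq2 (2.33), after adding the lymph node score to the fit (2.37), in the libraries with a lymph node score of at most 4 (2.71), in the fit of 80 libraries (2.35) and in 1 of the leave-one-out fits (2.04 to 2.57). Those libraries with a low lymph node score turned FGF21 KO against WT to -0.73, with FGF21 KO replicate 2 as the lone library of its group and assumed to vary like the others, and the threshold of 0.05 called UCP1 KO against FGF21 KO (1.60). In liver, the muscle score as a covariate turned UCP1 KO against WT to -0.91 and the averaged effect of Fgf21 loss to -0.44. The excess of BAT over muscle was called by DESeq2 (5.18 and 5.74). Single libraries moved UCP1 KO against dKO in BAT (-0.45 to 0.32, positive without UCP1 KO replicate 1 or dKO replicate 1), dKO against FGF21 KO in iWAT (-0.00057 to 0.70, negative without FGF21 KO replicate 2), UCP1 KO against dKO in liver (-1.72 to 0.27, positive without dKO replicate 1), the averaged effect of Fgf21 loss in liver (-0.41 to 0.58, negative without dKO replicate 1) and the excess of BAT over liver for dKO against FGF21 KO (1.95 to 4.21, called without liver dKO replicate 1).

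In the exact permutation tests on log2 CPM, raw library totals in place of TMM turned UCP1 KO against dKO in BAT to 0.0018, made iWAT exceed BAT in WT by 1.54 (adjusted p = 0.0476) and lowered liver over iWAT in FGF21 KO to 1.17 (adjusted p = 0.127), while RLE factors gave 1.70 (adjusted p = 0.0635) for BAT over muscle in FGF21 KO. Raw totals also moved the iWAT means to 0.408 CPM in WT, 0.774 CPM in FGF21 KO and 0.783 CPM in dKO. Over leave-one-out, differences whose unadjusted p crossed 0.05 or whose sign turned ranged, in BAT, from -0.44 to 0.29 for UCP1 KO against dKO and 0.98 to 1.60 for FGF21 KO against WT; in iWAT, from 0.95 to 1.43 for UCP1 KO against dKO, 0.67 to 1.05 for dKO against WT and 1.30 to 1.90 for UCP1 KO against FGF21 KO; in liver, from -0.92 to 0.22 for UCP1 KO against dKO; in muscle, from 0.39 to 0.70 for UCP1 KO against WT, 0.81 to 1.18 against dKO, 0.32 to 0.63 against FGF21 KO and -0.049 to 0.18 for FGF21 KO against WT. Between tissues they ranged from 0.73 to 1.22 for iWAT over BAT in WT, -0.18 to 0.51 for iWAT over BAT in FGF21 KO, 0.76 to 1.49 for BAT over liver and 1.26 to 1.88 for liver over iWAT in UCP1 KO.

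Counts of list members changed as follows in BAT for UCP1 KO against WT. Lower receptor and processing genes were 2 at a threshold of 0.05 and 0 with the muscle or macrophage score as a covariate (leave-one-out 0 to 1). Lower stress-response regulators were 1 at 0.05 (leave-one-out 0 to 2, with 2 without UCP1 KO replicate 1), and higher ones 3 with the macrophage score. Higher p53 targets were 3 with the macrophage score. Higher TGF-beta ligands were 3 with the muscle score or in libraries with a muscle score of at most 5.2 and 2 with the macrophage score (leave-one-out 3 to 5), and other regulators 2 in those libraries. For dKO against FGF21 KO, higher regulators were 3 with the macrophage score and in libraries with a muscle score of at most 5.2 (leave-one-out 3 to 5), p53 targets 3 in the latter, and other regulators 1 at 0.05, by DESeq2 and in those libraries (leave-one-out 0 to 1). In iWAT, UCP1 KO against WT, higher regulators were 1 at 0.05 and 3 by DESeq2 (leave-one-out 0 to 1, with 1 without UCP1 KO replicate 2), targets 2, TGF-beta ligands 2 and other regulators 1 by DESeq2, with leave-one-out counts of 0 to 1 for targets and ligands. Of the 8 genes most like Gdf15, 4 stayed by Spearman's rho and 0 over the 8 fat groups. Of 39 named genes called in BAT in UCP1 KO against WT, 21 kept the call in every alternative and 0 turned, and of 30 in dKO against FGF21 KO, 17 kept it and 0 turned.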
